A study of Mus musculus with 2 samples.

Results

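Antigen-presenting genes were examined in mouse epidermis after induction of SOX11. The set held 10 genes: Cd1d1 and Cd1d2, named for the CD1d heavy chain that presents lipids, and 8 genes of peptide presentation by MHC class I, namely B2m, H2-D1, H2-K1, Tap1, Tap2, Tapbp, Psmb8 and Psmb9. Every array probe carrying 1 of these names was taken, which gave 14 of the 55676 probes and 10 of the 34820 names on the arrays. The genes were chosen with the readout of these arrays known, the high ratio of Cd1d1 included, so the values of the set are given as a description and without a test. Of the 14 probes, 12 had at least 1 channel above background on each array, and 1 probe each of Cd1d2 and Psmb9 had none on either.

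The arrays were 2-colour arrays with 1 pair of FVB/N littermates each, 2 pairs in all. Control pups carried K14-rtTA, a transgene in which the keratin 14 promoter drives a doxycycline-dependent activator, and their SOX11-induced littermates carried K14-rtTA and TRE-Sox11-FLAG, which that activator switches on. Doxycycline was given to both for 12 h, and the labels give the age as P4.5. Per the methods, the tissue was epidermis lifted from dorsal skin, so cells without keratin 14 that live in the epidermis were measured along with keratinocytes. The control was labelled with Cy3 and the SOX11-induced pup with Cy5 on both arrays. A log2 ratio of Cy5 over Cy3 above 0 therefore stands for a brighter signal after SOX11 induction, and for a single probe the dye and the genotype cannot be told apart.

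Between 37.5% and 42.6% of spots were well above background in a channel. Neither Sox11 probe, at chr12:28019541-28019600 and chr12:28020087-28020146, gave a signal above background in any of the 4 channels, so they gave no check of the genotype labels. All 10 keratinocyte markers were above background on both arrays. Across the 21782 probes above background, ratios of pair 1 and pair 2 were correlated (Pearson r = 0.685, across probes of the same 2 arrays, which are not independent replicates). At an adjusted p under 0.05 (limma) and a mean log2 ratio past 1.5, 204 probes were called higher and 48 lower, so 81% of the calls were higher. With each array centred on its median in place of loess, the calls were 746 higher and 10 lower (98.7% higher). This centring moved the median of the genes above background from 0.03 to 0.52 on the log2 scale, and signs of ratios smaller than this shift depend on it.

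CD1d is an MHC class I-like molecule. Its heavy chain pairs with beta-2 microglobulin, picks up lipids in endosomes and shows them to natural killer T cells. Classical class I molecules use the same light chain but are loaded with peptides in the endoplasmic reticulum. The immunoproteasome makes peptides in the cytosol, the TAP transporter carries them into the endoplasmic reticulum, and tapasin holds the empty class I molecule next to TAP. Keratinocytes carry class I and can express CD1d, while Langerhans cells are the professional antigen-presenting cells of the epidermis.

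Probes are shown first for the genes that the comparison turns on, in lower case and 5′ to 3′ as on the array, with positions on mouse build mm9. They are given so that it can be seen which transcript each ratio measured. Some probes are shown in full, and of the others the first 30 of 60 bases are shown. The place of each probe in its transcript was not analysed here.
Cd1d1, brightest probe, chr3:86799791-86799850, minus strand: taatgaccatcttaggacacagtctctatg
Cd1d1, other probe, chr3:86800368-86800427, minus strand: tctggggatgaaggagaggaatcctgaaga
Cd1d2, brightest probe, chr3:86793109-86793168, plus strand: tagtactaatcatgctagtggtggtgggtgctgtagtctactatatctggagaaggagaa
Cd1d2, other probe, chr3:86791538-86791597, plus strand: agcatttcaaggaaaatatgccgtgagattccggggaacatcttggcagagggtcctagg
B2m, chr2:121978401-121978460, plus strand: ttgaacctgcttaattacaaatccagtttc
H2-D1, chr17:35403886-35403945, plus strand: cagttctctttacacaacattgtctgatgt
H2-K1, other probe, chr17:34133984-34134043, minus strand: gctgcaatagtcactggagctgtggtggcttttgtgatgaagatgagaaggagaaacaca
Tap1, chr17:34330854-34330913, plus strand: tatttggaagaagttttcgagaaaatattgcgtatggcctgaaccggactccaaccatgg
Psmb8, chr17:34337771-34337830, plus strand: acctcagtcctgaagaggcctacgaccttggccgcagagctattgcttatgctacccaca
Psmb9, brightest probe, chr17:34319174-34319233, minus strand: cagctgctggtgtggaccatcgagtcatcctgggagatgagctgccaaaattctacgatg
The Cd1d1 and Cd1d2 probes lay on opposite strands of chromosome 3, with 6.62 kb between the nearest positions of both genes. The brighter Cd1d2 probe also carried the Cd1d1 transcript among its accessions in the array files, so its signal cannot be credited to Cd1d2 alone. The other Cd1d2 probe carried no Cd1d1 accession. The probes of Psmb9, Tap1, Psmb8 and Tap2 lay within 34 kb of chromosome 17.

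Cd1d1, the gene of the CD1d heavy chain, had the highest ratios of the set. Its brightest probe gave log2 ratios of 3.50 and 3.67 in pairs 1 and 2 (mean 3.59 ± 0.118, SD, n = 2), which is 12.0-fold. All 4 channels were above background. The normalized log2 level was 6.77 and 6.84 in the controls and 10.27 and 10.51 in the SOX11-induced pups. The genotypes thus did not overlap, and the pairs differed far less than the genotypes. The share of all probes without such overlap was not counted, so nothing is read from overlap for any gene here. Before dye normalization, the spot stood 59.8 and 70.7 scanner units over its local background in the controls and 1552 and 2306 units in the SOX11-induced pups. By the brightest probe, every peptide presentation gene but Tap1 was also brighter in Cy5 in these units. Tap2, for example, had 395.3 and 476 in the controls against 509.1 and 624 after SOX11 induction, so the units are not read as fold changes.

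For the other Cd1d1 probe the log2 ratios were 2.53 and 2.57 (mean 2.55 ± 0.0296, SD, n = 2). In neither pair was its control channel well above background, with log2 levels of 5.45 and 5.59, against 7.98 and 8.17 after SOX11 induction. The control level of such a probe is only a bound, and the signal was at least 5.67-fold higher, with the control set on each array to the dimmest probe that was well above background, or to its own signal where that was higher. This bound is for the normexp offset of 16 alone, since the mean log2 ratio of the probe was 1.85 with an offset of 50, which is below the bound, and 4.77 with processed signals. Both Cd1d1 probes thus pointed the same way on both arrays. Which ratio lies closer to the change of the transcript was not tested.

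Cd1d2 lies beside Cd1d1 and is listed on the arrays with both a coding and a non-coding RefSeq transcript. Its brighter probe, which carries the Cd1d1 accession too, gave log2 ratios of 1.09 and 2.29 in pairs 1 and 2 (mean 1.69 ± 0.85, SD, n = 2). The log2 levels were 7.01 and 5.88 in the controls and 8.09 and 8.16 after SOX11 induction. The SOX11 levels were alike in both pairs, while the controls differed, and the control of pair 2 was not above background. The probe without a Cd1d1 accession had log2 ratios of -0.38 and 0.02 with levels between 4.71 and 5.18, and no channel of it was above background on either array. No signal of Cd1d2 itself was therefore detectable with this probe.

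**Figure D1:**
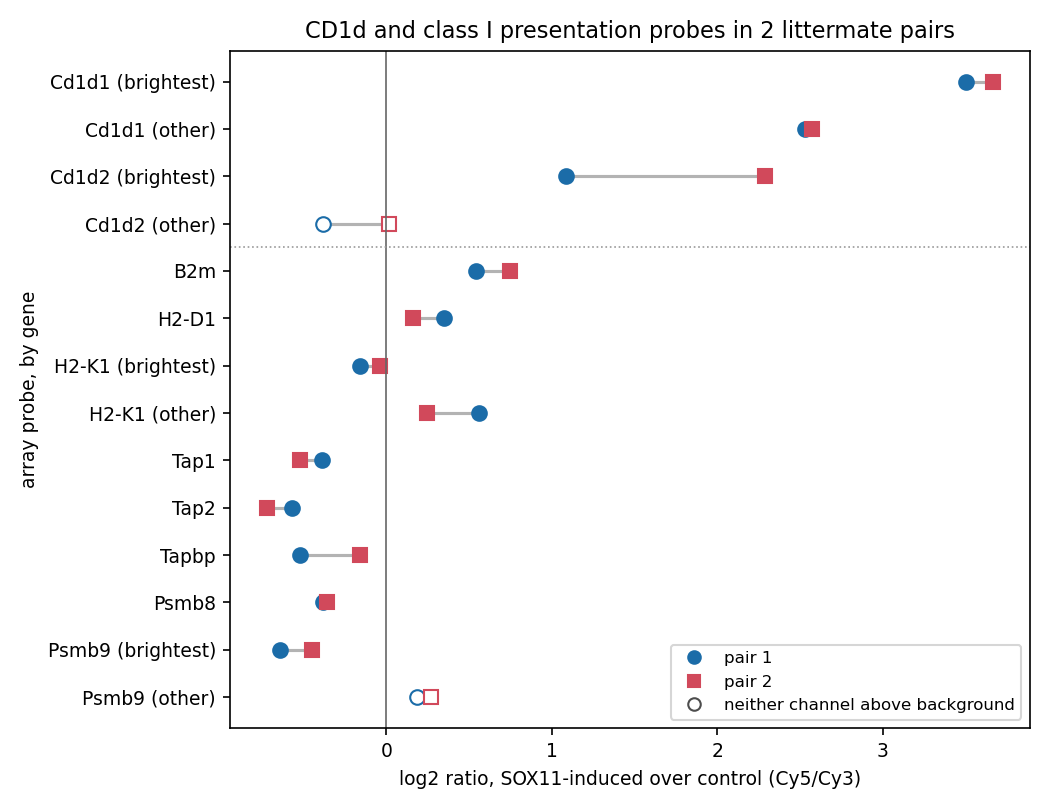
Log2 ratio of SOX11-induced over control signal (x axis) for each of the 14 probes (y axis, by gene), with a circle for pair 1 and a square for pair 2; open symbols mark probes with neither channel above background. Both Cd1d1 probes lie between 2.53 and 3.67, while every probe of the peptide presentation genes, below the dotted line, lies between -0.72 and 0.75.

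B2m, the light chain that CD1d and class I share, gave log2 ratios of 0.54 and 0.75 (mean 0.64 ± 0.145, SD, n = 2), which is 1.56-fold. The log2 levels were 10.57 and 10.09 in the controls and 11.11 and 10.84 after SOX11 induction. The ratio was above 0 in both pairs, and the higher control lay below the lower SOX11 level. Its 2 spots on each array gave ratios of 0.51 and 0.57 in pair 1 and 0.65 and 0.84 in pair 2.

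Heavy chains of classical class I gave small ratios. H2-D1 had log2 ratios of 0.35 and 0.16 at levels of 11.84 and 12.07 in the controls and 12.19 and 12.23 after SOX11 induction. H2-K1 was measured by a pair of probes that disagreed in sign. Its brighter probe, at chr17:34133055-34133114, had log2 ratios of -0.16 and -0.04, and the other, at chr17:34133984-34134043, had 0.56 and 0.25. Class I genes are close copies of each other, and how much each probe also bound other class I transcripts was not tested.

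Tap1 and Tap2, the subunits of the peptide transporter, had ratios below 0 in both pairs. Tap1 had log2 ratios of -0.39 and -0.52, with levels of 6.14 and 6.28 in the controls and 5.75 and 5.76 after SOX11 induction. Its probe was dim, 43.8 and 50.7 scanner units over local background in the controls and 37.9 and 47.9 after SOX11 induction. The size of its mean log2 ratio depended on the processing, with -0.28 under median centring and -0.96 with processed signals. Tap2 had log2 ratios of -0.57 and -0.72, with levels of 9.28 and 9.38 in the controls and 8.71 and 8.66 after SOX11 induction. For each of these probes both controls lay above both SOX11 levels. Tapbp, which encodes tapasin, gave log2 ratios of -0.52 and -0.16 (mean -0.34 ± 0.259, SD, n = 2), so that the spread between pairs was close to the size of the mean. Its probe is at chr17:34065963-34066022, and that of Tap2 at chr17:34353116-34353175.

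The immunoproteasome subunits, which take the place of constitutive subunits and alter the peptides made, also had ratios below 0 in both pairs with loess, which for Psmb8 and in part for Psmb9 turned with median centring. Psmb8 gave log2 ratios of -0.39 and -0.36 (mean -0.37 ± 0.0183, SD, n = 2), with levels of 8.02 and 7.76 in the controls and 7.64 and 7.40 after SOX11 induction. Psmb9 had log2 ratios of -0.64 and -0.45, with levels of 8.48 and 7.77 in the controls and 7.84 and 7.32 after SOX11 induction. With loess, the Psmb8 levels did not overlap between genotypes. Those of Psmb9 overlapped across pairs, since its SOX11 level in pair 1 lay above its control level in pair 2. As above, nothing is read from overlap. The other Psmb9 probe, at chr17:34322762-34322821, had log2 ratios of 0.18 and 0.27 but was not above background in any channel, so no direction is read from it.

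**Figure D2:**
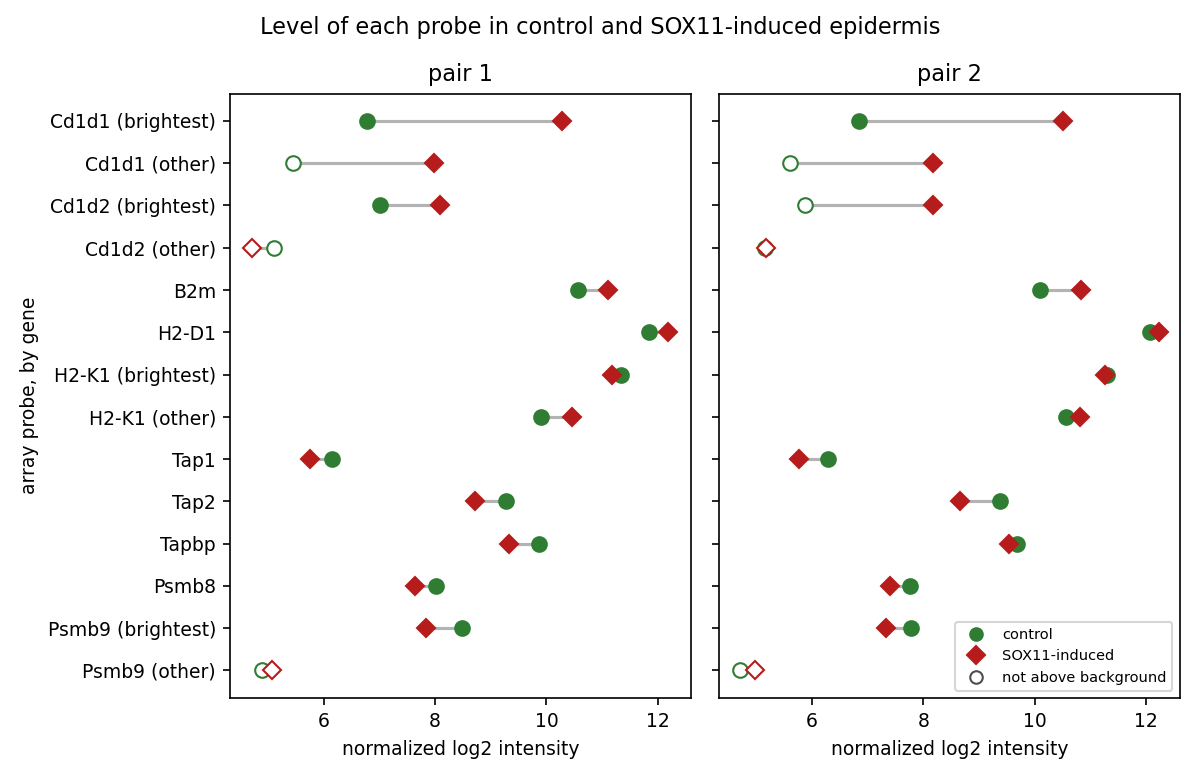
Normalized log2 intensity (x axis) of each probe (y axis, by gene) in the control (circle) and the SOX11-induced pup (diamond) of pair 1 (left) and pair 2 (right); open symbols mark channels not above background, and levels can be compared within a row but not between probes. The brightest Cd1d1 probe moves from 6.77 to 10.27 in pair 1 and from 6.84 to 10.51 in pair 2, while the distances in the rows of peptide presentation genes reach 0.75 at most.

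Some probes were spotted repeatedly on each array, which shows the error of a single spot. The 10 spots of Tap1 ran from -0.63 to -0.27 in pair 1 and from -0.74 to -0.19 in pair 2, and all 10 were below 0 on both arrays. In pair 1, 1 of these spots carried an outlier flag and was left out of the average. The 10 spots of the brighter H2-K1 probe ran from -0.26 to -0.07 in pair 1 and from -0.15 to 0.06 in pair 2, where 7 of the 10 were below 0. The SD among the Tap1 spots was 0.12 in pair 1 and 0.156 in pair 2, and that among the H2-K1 spots was 0.0625 and 0.069. Spots of an array share its RNA and are not replicates of the condition.

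**Figure D3:**
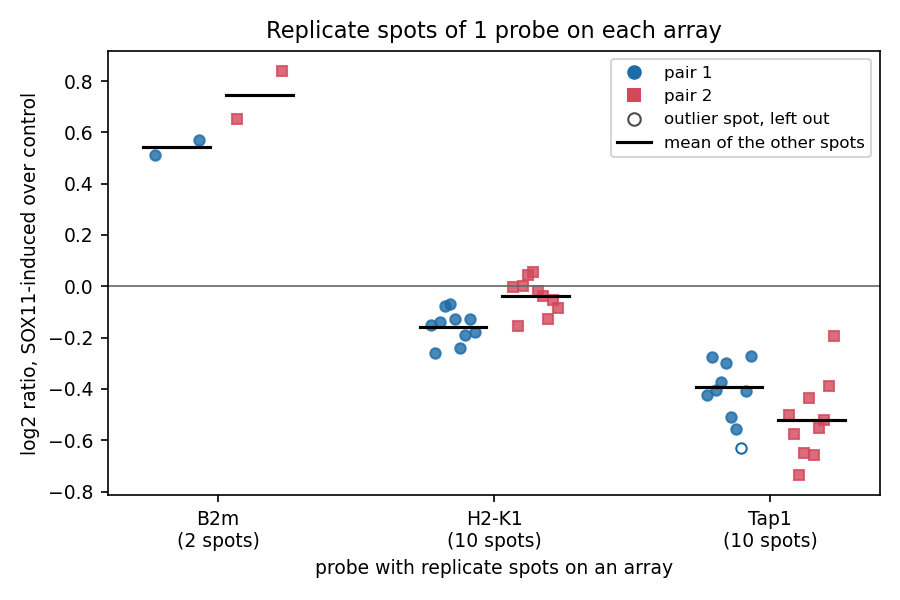
Log2 ratio (y axis) of each replicate spot of the B2m, H2-K1 and Tap1 probes (x axis) in pair 1 (circles) and pair 2 (squares); black bars are means of the spots used and the open symbol is the outlier spot. All B2m spots lie above 0, all Tap1 spots lie below 0 and the H2-K1 spots lie near 0.

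Cd1d1 alone, for lipid presentation, was then set against the 8 peptide presentation genes, with the brightest probe of each gene. Cd1d2, with a mean of 1.69 at its brighter probe, was not used. B2m, the light chain shared by CD1d and class I, was counted with peptide presentation. The median log2 ratio of the 8 peptide presentation genes was -0.39 in pair 1 and -0.26 in pair 2 (0.18 over both pairs with median centring), with means over the pairs from -0.65 for Tap2 to 0.64 for B2m. Of the 8 genes, 2 were above 0 in both pairs and 6 below 0 in both. With median centring, 2 were below 0 in both. Among the 16341 genes above background, 6564 were above 0 in both pairs and 5582 below 0 in both with loess. The 5 genes of peptide transport, loading and the immunoproteasome had a median of -0.52 and -0.45, and the 3 genes of the class I chains 0.35 and 0.16. Over all 16341 genes above background the median was 0.03 and 0.02. The log2 ratio of Cd1d1 minus the median of the 8 genes was 3.89 in pair 1 and 3.93 in pair 2. By mean log2 ratio, Cd1d1 ranked 3 of these 16341 genes from the top, B2m 1361, H2-D1 4246, H2-K1 10792 and Tap2 15716.

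At an adjusted p under 0.05 and past a log2 ratio of 1.5, 3 of the 14 probes were called higher, against 0.366% of all probes. These were both Cd1d1 probes and the brighter Cd1d2 probe. For calls in the lower direction the share of all probes was 0.0862%. Since the genes were chosen on this contrast, nothing is read from these counts.

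Signs of the smaller ratios depended on how the arrays were centred. With median centring, Cd1d1 had a mean log2 ratio of 4.13, and B2m and H2-D1 stayed above 0. H2-K1, Tapbp and Psmb8 then turned above 0 in both pairs, with H2-K1 at 0.43 and 0.67, Tapbp at 0.02 and 0.49, and Psmb8 at 0.06 and 0.14. Psmb9 had -0.17 and 0.05, and Tap1 and Tap2 remained below 0 in both pairs. Relative to the median of the genes above background, the median of the 8 genes was lower by a similar amount, -0.39 with loess and -0.35 with median centring, and Cd1d1 was at 3.55 and 3.61.

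**Figure D4:**
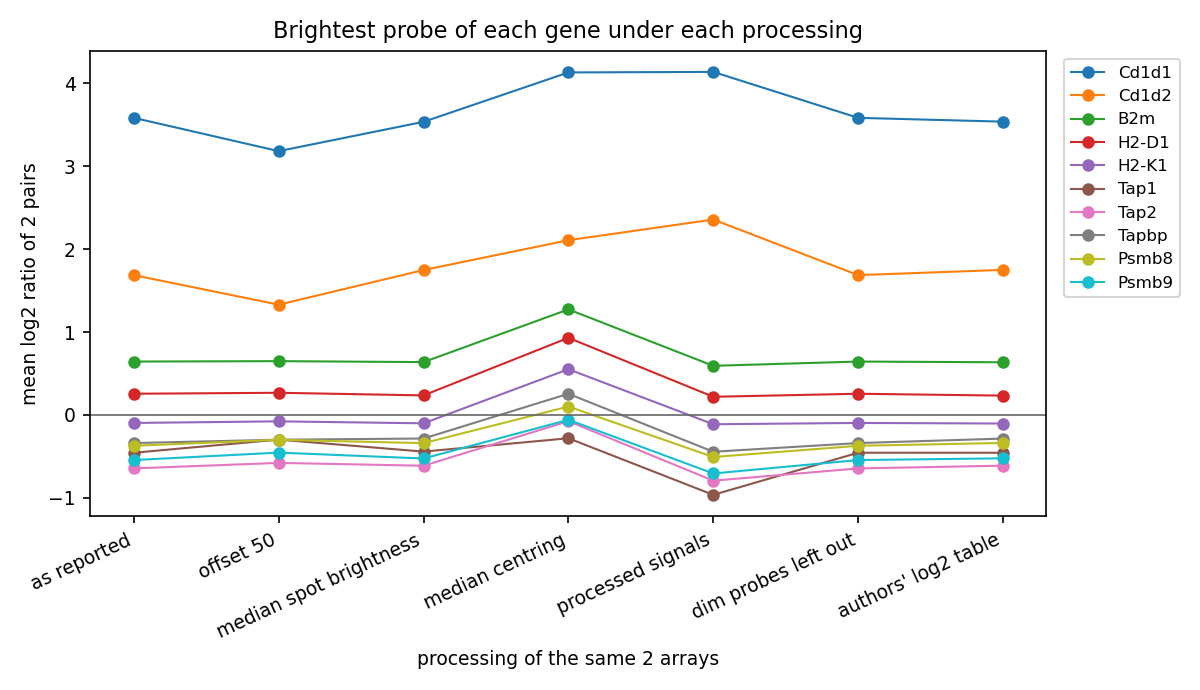
Mean log2 ratio over both pairs (y axis) of the brightest probe of each gene (colours) under each way of processing the same 2 arrays (x axis). Cd1d1 stays between 3.18 and 4.14 and above every other gene, while several peptide presentation genes cross 0 with median centring.

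The 5 probes above background whose ratios on both arrays were nearest to those of the brightest Cd1d1 probe were named by their Euclidean distance over the 2 log2 ratios. Sox4, which encodes a relative of SOX11, was nearest with 3.49 and 3.68 (distance 0.0109), at a probe on chr13:29044482-29044541, while its other probes, at chr13:29040826-29040885 and chr13:29042856-29042915, had means of -1.42 and -1.39. Tes, the gene of the focal adhesion protein testin, followed with 3.41 and 3.61 (distance 0.104). Then came a pair of probes for an unnamed transcript at chr13:28947106-28947225, with distances of 0.166 and 0.213, and Slc29a4, a monoamine transporter gene, with 3.32 and 3.46 (distance 0.276), of which the ratio of pair 2 has a control that was not above background and so is not exact. Likeness over 2 arrays says only that these ratios had a similar size.

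Genome neighbours of the set were looked at within 200 kb on mm9. Around Cd1d1 and Cd1d2, 25 probes were listed, 6 of them above background, and the 3 called past log2 1.5 were those of Cd1d1 and Cd1d2. Of the other 3 above background, 2 had a higher signal at an adjusted p under 0.05 (limma) without passing log2 1.5, and they are named after their values were seen. The first was a probe of Kirrel, the gene of a cell adhesion protein, with 1.26 and 0.75 (adjusted p = 0.0125), and the second a probe of an unnamed transcript at chr3:86877693-86877752, with 0.95 and 0.64 (adjusted p = 0.024). No other listed probe of Kirrel or of this transcript was above background. Around the Tap and Psmb genes, 35 probes were listed, and the 18 above background had mean log2 ratios from -0.78 to 0.61. The lowest of them was Rxrb, outside the set, with -0.69 and -0.86 (adjusted p = 0.0232, limma).

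Promoters of the peptide presentation genes were read from RefSeq sequences on build GRCm38.p6, 250 bases before to 50 after each start site. Of the 10 genes 7 matched, in 8 windows. Cd1d1, Cd1d2 and Tap2 had no window, so their promoters were not searched. These promoters are shown because Tap1 and Psmb9 share theirs and because class I promoters have known control elements. Whether position or promoter bears on the ratios was not tested. Tap1 and Psmb9 are divergent genes, and the 225 bases between their start sites hold the promoters of both. Letters searched on both strands were ACAAAG and ACAAT for SOX factors, GAAANNGAA for the interferon-stimulated response element, GGANTTTCC and GGGATTCCC for NF-kB, TGACGT for CRE and TTCNNNGAA for GAS, which reads the same on both strands. Matches are in capitals.
Between the start sites of Psmb9 and Tap1, chr17:34187331-34187555, plus strand: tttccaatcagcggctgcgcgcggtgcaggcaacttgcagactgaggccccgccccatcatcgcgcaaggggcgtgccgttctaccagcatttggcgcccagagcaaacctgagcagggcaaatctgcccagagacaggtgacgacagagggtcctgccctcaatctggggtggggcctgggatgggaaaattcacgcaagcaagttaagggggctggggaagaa
H2-K1, chr17:34000409-34000467, minus strand: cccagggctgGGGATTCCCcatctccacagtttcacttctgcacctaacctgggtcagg
H2-D1, chr17:35262914-35262972, plus strand: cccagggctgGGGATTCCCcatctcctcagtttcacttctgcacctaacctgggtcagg
B2m, chr2:122147538-122147615, plus strand: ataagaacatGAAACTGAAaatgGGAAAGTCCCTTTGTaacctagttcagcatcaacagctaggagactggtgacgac
The shown stretches of H2-K1 and H2-D1 shared 58 of 59 bases and both held GGGATTCCC, the NF-kB letters of class I enhancers, which 0.353% of the 32851 promoters in the table held. The B2m stretch held GAAACTGAA, a match to the interferon letters found in 8.56% of all promoters, then GGAAAGTCC on the reverse strand for NF-kB (1.25%) and CTTTGT, the reverse of the SOX letters ACAAAG (18.7%). The Psmb8 window held TTCCCAGAA, a match to the GAS letters found in 8.3% of all promoters. None of the letters searched was in the windows of Tapbp, Tap1 or Psmb9. The other searched letters, ACAAT and TGACGT, were in 31% and 7.51% of all promoters and in none of the 8 windows. A match is a description of letters, and no factor was measured. Other forms of these elements were not searched. A stretch without a match, such as those of H2-K1 and H2-D1 for the interferon letters, is therefore not shown to lack the element.

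Related genes were taken as 8 lists around the set, with the brightest probe of each gene read from the fit over all probes. Of 138 genes listed, 133 were on the arrays and 96 above background. Of these 96, 5 had an adjusted p under 0.05 (limma) with a higher signal and 4 with a lower one. Across all 16341 genes above background these shares were 6.93% and 3.52%. At an unadjusted p under 0.05, 17 were higher and 14 lower. The share of all genes at this unadjusted threshold is not given, so nothing is read from unadjusted counts here or in the lists below. The median log2 ratio of the 96 genes was 0.05, and that of all genes above background was 0.03.

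In the lipid arm, 18 genes of lipid loading and CD1d trafficking were listed and 17 were above background, with 1 higher, 2 lower and a median of 0.10. Npc2, a lysosomal lipid-binding protein, rose with log2 ratios of 1.37 and 1.02 (adjusted p = 0.0037, limma). Its log2 level was 10.02 and 10.22 in the controls and 11.39 and 11.25 after SOX11 induction. Psap, the precursor of the saposins that load lipids onto CD1d, fell with -0.65 and -0.63 (adjusted p = 0.0448, limma). The call was lost in 4 of 7 alternatives. Psap was at -0.02 with median centring (adjusted p = 0.929), -0.60 with median brightness (adjusted p = 0.0784), -0.61 in the series table (adjusted p = 0.0767) and -0.72 with processed signals (adjusted p = 0.244). Processed signals took the call from Npc2 too, at 1.22 (adjusted p = 0.246).

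In the peptide arm, 12 partners of peptide processing and loading were listed and 11 were above background. None passed an adjusted p under 0.05 (limma), and at an unadjusted p under 0.05, 0 were higher and 2 lower. Their median log2 ratio was -0.27, with 9 of 11 means below 0 and with a median of 0.41 under median centring. The lowest was Psmb10, the third immunoproteasome subunit, with -0.83 and -0.50 (adjusted p = 0.0505), and the highest Tpp2, a cytosolic peptidase, with 0.16 and 0.22. The 12 constitutive proteasome subunits, all above background, had a median of 0.11. None passed the adjusted or the unadjusted threshold, and their means ran from -0.25 for Psmb3 to 0.27 for Psmb7. With median centring the median was 0.81 and all 12 were higher at an unadjusted p under 0.05, with Psmb3 turned to 0.50 (adjusted p = 0.0337) and Psmb7 at 0.92 (adjusted p = 0.00276).

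The regulators of class I, 13 genes with 11 above background, had a median of 0.03 and none passed an adjusted p under 0.05 (limma), while 2 were higher and 2 lower at an unadjusted p under 0.05. Their extremes were Creb1, a factor that binds CRE, with 0.43 and 0.56, and Nfkb1, an NF-kB subunit, with -0.61 and -0.33. Of 22 other class I and class I-like genes, 19 were measured and 13 above background, with a median of 0.05 and none past the adjusted threshold (3 higher and 1 lower unadjusted). The highest of them, Procr, the receptor of protein C and a relative of CD1, gave 1.75 in pair 1 but -0.20 in pair 2, so its pairs pointed opposite ways. The lowest was H2-Ke6, a dehydrogenase gene of the MHC region despite its name, with -0.47 and -0.34.

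Class II genes mark Langerhans cells in resting epidermis. Of 11 listed, 10 were measured and 7 above background, with a median of -0.27 (0.32 with median centring) and none past the adjusted threshold (limma, with 1 higher and 2 lower unadjusted). Cd74, the invariant chain, had log2 ratios of -0.41 and -0.58, and H2-Eb1, a class II beta chain, 0.46 and 0.77. The summed normalized intensity of the list was 31800 and 10560 in the controls and 25640 and 8210 after SOX11 induction, so it differed more between pairs than between littermates.

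The interferon response list had the most calls, with 4 higher and 1 lower of 16 above background, out of 28. The higher genes were Ddx58, the RIG-I sensor of viral RNA, with 1.29 and 1.58 (adjusted p = 0.00122, limma), and Ifngr2, a chain of the interferon gamma receptor, with 1.44 and 1.27 (adjusted p = 0.00143). Usp18, a brake on interferon signalling, had 0.66 and 0.89 (adjusted p = 0.0248), and Ifnar2, a chain of the type I interferon receptor, 0.94 and 0.71 (adjusted p = 0.0192). Ifngr1, the other chain of the interferon gamma receptor, fell with -1.10 and -0.93 (adjusted p = 0.00652). Of these 5, 3 are receptor chains and not response genes. The median of the list was 0.10, with 8 means above 0 and 8 below. With processed signals none of the 5 passed, with adjusted p from 0.244 to 0.25, and with median centring Ifngr1 did not (adjusted p = 0.0601).

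Of 22 other ligands for lymphocyte receptors, 21 were measured and 9 above background, with 1 lower and a median of 0.25. Icosl, the ligand of the costimulator ICOS, fell with -0.46 and -1.02 (adjusted p = 0.0482, limma), a call that was lost in 6 of 7 alternatives. H60c, a skin ligand of NKG2D, had the highest mean of the list, 0.60 against 0.58 for the next gene, with 0.33 and 0.87 in the pairs (adjusted p = 0.0881), although other genes of the list were higher in each single pair.

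**Figure D5:**
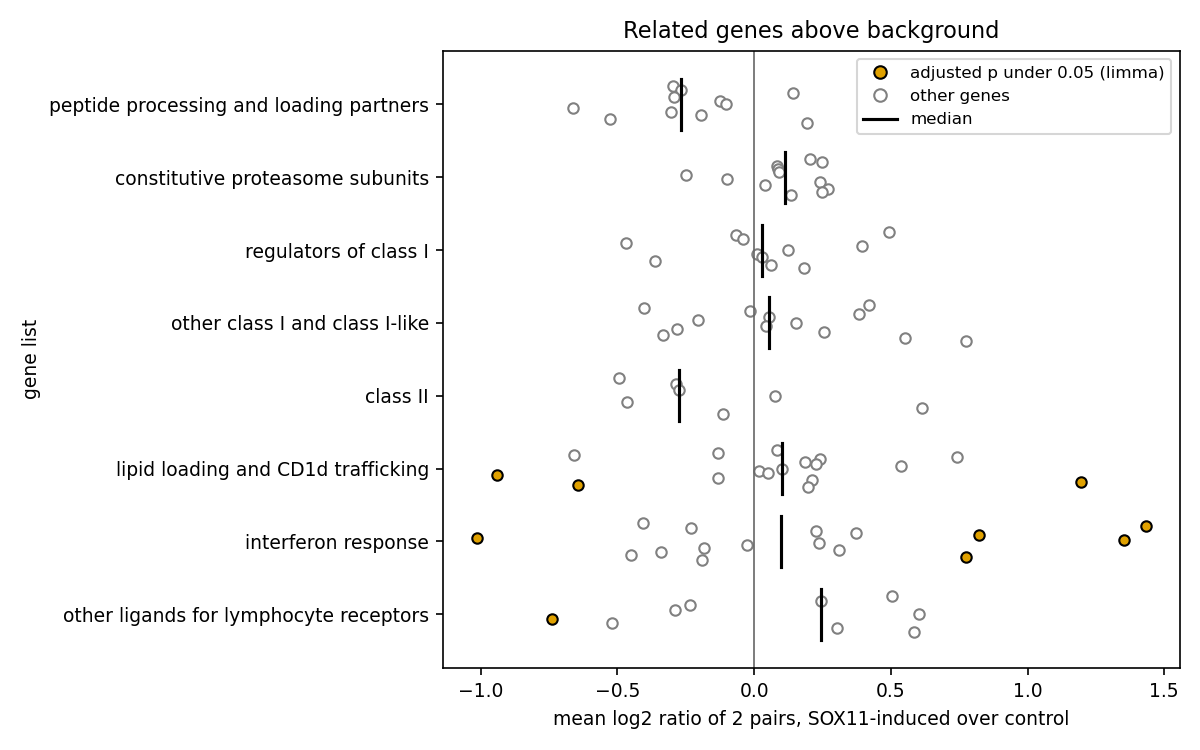
Mean log2 ratio over both pairs (x axis) of each related gene above background, by list (y axis); filled points had an adjusted p under 0.05 (limma) and black bars are list medians. The 9 filled points lie in 3 of the 8 lists, and the peptide processing and class II medians lie at -0.27 (0.41 and 0.32 with median centring).

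Markers of other cells were read in the same way, since bulk RNA cannot tell fewer cells of a type from less RNA per cell. Of 12 markers of Langerhans and other myeloid cells, which also carry CD1d, 10 were above background and none passed an adjusted or unadjusted p under 0.05 (limma). The summed normalized intensity of all 12 was 11820 and 6118 in the controls and 10610 and 6173 after SOX11 induction. It was thus lower after induction in pair 1 and nearly level in pair 2. Cd207, the Langerhans cell lectin, had log2 ratios of -0.33 and -0.15. Of 13 lymphocyte markers, 8 were above background, all with means below 0 (5 of the 8 were above 0 with median centring). At an unadjusted p under 0.05 (limma), 2 of the 8 were lower. The sum of all 13 markers was 3310 and 2213 in the controls and 2034 and 1546 after induction. Thy1, a T cell marker, fell with -1.37 and -1.22 (adjusted p = 0.00179, limma) and was the only lymphocyte marker past the adjusted threshold. Its control levels, 10.56 and 9.93, were the highest of the list, so it weighs most in the sum. Other T cell markers moved less, such as Il2rb with -0.63 and -0.37, Cd3e with -0.14 and -0.01 and Lck with -0.16 and -0.33. The part of lymphocytes in the ratios of the peptide presentation genes was not tested.

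Keratinocyte markers summed to 510500 and 427600 in the controls and 529000 and 485900 after induction, with 1 of 10 lower, Col17a1 of hemidesmosomes (-1.32 and -0.88, adjusted p = 0.00669). Of 6 dermal fibroblast markers, 4 were above background. The sum of all 6 was 1099 and 1182 in the controls and 833.6 and 1535 after induction, so that it moved in opposite directions in the pairs. The collagens among these markers were above 0 in pair 2, such as Col1a2 with -0.17 in pair 1 and 1.14 in pair 2. Dcn, a matrix proteoglycan, was lower in both pairs (adjusted p = 0.026, limma). Of 3 endothelial markers, 2 were above background and none passed (0 at an unadjusted p under 0.05). The log2 ratio of Cd1d1 was 3.50 and 3.67 in the same pairs, and the part of cell composition in it was not tested.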

How the data were processed

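RNA of 2 littermate pairs was measured on 2 arrays of 1 slide and scan. The intensity values deposited by the authors are, per the file headers, spot and background brightness from Agilent Feature Extraction 10.7.3.1, without normalization, and processed signals are intensity values that the software corrected and dye-normalized. The deposited log10 ratio column was not used. The authors' series table holds log2 ratios, matched by a rebuild with median brightness, normexp and loess over 55819 probes (correlation 1 on both arrays, largest differences 5.5e-05 and 0.00046). The study's methods also mention a colour swap, which the labels do not show, and ComBat, which this match did not need.

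Mean brightness and median background were corrected by normexp (offset 16) and centred by loess with control spots at weight 0, in R 4.3.3 with limma 3.58.1. Outlier spots were left out (194 and 186), spots of a probe averaged, and an intercept fitted to both ratios with eBayes (prior degrees of freedom 8.34, prior SD 0.223) and Benjamini-Hochberg adjustment over 55676 probes. Since the arrays share 1 dye orientation and number only 2, precision is limited and calls rest on this prior. Levels per channel are log2 intensities after loess and Aquantile scaling. Summed levels add these on the linear scale over every measured gene of a list, also those not above background. A probe was above background in a channel when at least 0.5 of its spots were marked so, and a gene was read from its brightest probe. The script was tested on simulated data.

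Groups came from the labels. The members and lists were chosen with earlier results of these data known. Genes named from a list were those with an adjusted p under 0.05 and the highest and lowest of those above background, and markers were named as examples. Of the genes this rule names, 1 is not reported here. Alternatives were an offset of 50, median brightness, median centring, processed signals, dim probes left out, the series table, the mean of all probes of a gene, and leaving out each pair. Replicate spots were added after the data were seen. Exons and UTRs on mm9 were not analysed here.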

Additional observations from a re-analysis of the deposited data

How the results depend on the processing

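Cd1d1 stayed above 0 and the 8 peptide presentation genes stayed below it in every alternative run. The mean log2 ratio of Cd1d1 was 3.18 with an offset of 50, 4.13 with median centring, 4.14 with processed signals and 3.07 as the mean of its probes. The median of the 8 genes was 0.18 with median centring, which turned its sign, -0.48 with processed signals and -0.25 as the mean of all probes. Cd1d1 minus this median was 3.43 with an offset of 50, 3.83 with median brightness, 3.96 with median centring, 4.62 with processed signals, 3.84 in the series table and 3.29 as the mean of all probes. Leaving out either pair gave 3.50 to 3.67 for Cd1d1, -0.39 to -0.26 for the median of the 8 genes and 3.89 to 3.93 for the difference. With 1 array left no test was possible, so counts were not recomputed there.

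Probes called higher were 746 and lower 10 with median centring, and 31 lower with an offset of 50. Processed signals gave 0 calls in either direction (limma), with 936 probes past log2 1.5 at an unadjusted p under 0.05. Related genes were 10 higher and 10 lower with an offset of 50, 61 higher and 0 lower with median centring (68 higher and 3 lower unadjusted), and 0 in both directions with processed signals (15 higher and 16 lower unadjusted). Lower ones were 2 with median brightness, 2 in the series table and 2 as the mean of all probes. Shares of all genes at these thresholds are not given for the alternatives, so nothing is read from the counts of related genes there. The causes were not tested.

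Signal over background limits the other Cd1d1 probe, both Cd1d2 probes, the other Psmb9 probe and the dim Tap1 probe. A pair of arrays with 1 dye orientation limits every ratio.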
